A study of Arabidopsis thaliana with 9 samples.

Results

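Rosettes of the Arabidopsis thaliana accession C24 were compared with rosettes of the accession Col (Col-0), which are the inbred parents of the hybrid in the series. The comparison uses the 3 arrays titled C24 and the 3 titled Col, 6 of the 9 arrays in the series, and every probe set on them that is not a control of the array maker, 22746 in all. The labels name no transgene or treatment for either accession, and both were grown on agar at 22 °C with 12 h of light and 12 h of dark and harvested as whole rosettes 15 days after sowing. RNA came from rosette leaves, and each group held 3 biological replicates; neither the number of plants per replicate nor the hour of harvest is stated in the sources used here. The arrays of the F1 hybrid entered only the estimate of the spread.

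Accessions are inbred lines collected from different places, and they differ in DNA sequence, in gene copy number and in which genes are silenced. Plant defence is a known point of difference between them. In Arabidopsis the hormone salicylic acid drives one set of defence genes and jasmonate with ethylene drives another, which includes small antimicrobial peptides such as defensins. A further constitutive defence rests on stored glycosides and the glucosidases that cut them, some of which sit in endoplasmic reticulum (ER) bodies, spindle-shaped compartments of Brassicaceae cells.

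The values are MAS5 signals, linear intensities without a unit, which combine the short probes of a probe set. Each array had been scaled to 1 mean, so a value is relative to the rest of its array. Array medians ran from 158.5 to 174.4. Across all probe sets, log2 signals correlated at 0.933 to 0.939 between arrays of the same accession and at 0.904 to 0.909 between C24 and Col arrays. RCA, a leaf gene for the activase of the carbon-fixing enzyme Rubisco, stood at 36305 ± 4544 in Col and 31676 ± 1238 in C24. The shoot meristem gene CLV3 was near the bottom of the scale in both (8.78 ± 11.2 in Col and 4.32 ± 1.89 in C24). It was the 1 measured of 19 listed markers of roots, seeds, shoot meristem and flowers, so these values do not test the tissue label. The array's probes are written to the Col genome sequence, so for a gene that reads lower in C24, less transcript and weaker binding of a divergent transcript cannot be told apart. In whole rosettes, fewer cells of a type and less RNA per cell cannot be told apart either.

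A probe set was called when limma's adjusted p was below 0.05. Between C24 and Col, 4091 of 22746 probe sets (18.0%) were called, 2129 higher in C24 (9.36%) and 1962 lower (8.63%). At least 2-fold differences were called for 848 probe sets higher in C24 (3.73%) and 648 lower (2.85%). The 3 C24 signals and the 3 Col signals did not overlap in 7669 probe sets (33.7%). The split of the calls moved with the scaling of the arrays: after centring every array on its median it was 1679 higher and 2431 lower. Calls were made for 2148 of the 13355 genes that the annotation names (16.1%), 1138 of them higher (8.52%) and 1010 lower (7.56%) in C24. These last shares are the background against which the counts in gene groups are read, and the median difference over these genes was 0.04 on the log2 scale. Families taken by symbol draw mainly on genes with a symbol. Of those, 356 of 1557 were called, a larger share than over all named genes, so a family share slightly above 16.1% does not set a family apart. All differences are C24 minus Col on the log2 scale, errors on group means are SDs with n = 3 arrays, and the calls rest on limma's spread shared across arrays, since an exact test of 3 against 3 arrays cannot go below p = 0.1.

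A small number of genes were on in one accession and near background in the other. A probe set counted as on when its signal reached the 60th percentile of its own array on all 3 arrays of a group (266 to 285) and as near background when it stayed at or under the 25th percentile on all 3 arrays of the other (32.9 to 39.1). By this rule 20 probe sets were on in C24 only, 10 of them with 1 named gene, and 10 were on in Col only, 9 of them named. The rule fixes that these groups differ, so the values are a description.

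Among the genes on in C24, PDF1.2b (AT2G26020) encodes a plant defensin. Its signals were 5.28, 6.097 and 11.6 in Col and 11383, 8170.2 and 7581 in C24, a mean difference of 10.27. Its probe set is of a kind that can bind transcripts of related genes. CYP71B23 (AT3G26210), a cytochrome P450 gene, read 7.23, 14.6 and 21.7 in Col and 618, 574 and 877 in C24. SUFE2 (AT1G67810) encodes an activator of the enzyme that frees sulfur for iron-sulfur clusters, and its signals were 11.01, 4.15 and 17.7 in Col and 348, 386 and 511 in C24. No Col array read PDF1.2b, CYP71B23 or SUFE2 above 21.7.

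The other genes on in C24 carry only locus numbers in the annotation. AT3G48640 read 32.99, 5.36 and 26.4 in Col and 1719.8, 1568 and 1755 in C24. AT1G13470 read 3.03, 1.88 and 26.02 in Col and 716, 625 and 830.0 in C24. For both, the Col arrays were spread over several-fold at the bottom of the scale while the C24 arrays lay close together. AT5G34920, whose probe set can bind related transcripts, had signals of 3.57, 28.6 and 5.26 in Col and 656, 608 and 837 in C24, and AT5G59670 had 31.7, 31.7 and 31.4 in Col and 597, 511 and 478 in C24. AT1G65500 read 9.54, 12.6 and 11.997 in Col and 528, 494 and 419 in C24. The rule itself requires 3 low and 3 high arrays for each of these loci. AT3G60920 gave 12.3, 24.5 and 5.003 in Col and 389, 444 and 403 in C24, and AT5G52760 gave 1.56, 14.3 and 6.58 in Col and 299, 315 and 376 in C24. Single Col arrays set the size of several of these ratios: AT3G48640 (6.65) moved by over 1.5-fold without Col replicate 2 (5.83), AT1G13470 (7.09) moved by over 1.5-fold without Col replicate 2 (6.34) or Col replicate 3 (8.24), AT5G34920 (6.42) moved by over 1.5-fold without Col replicate 1 (5.82) or Col replicate 2 (7.32), AT3G60920 (5.16) moved by over 1.5-fold without Col replicate 3 (4.57) and AT5G52760 (5.96) moved by over 1.5-fold without Col replicate 1 (5.08) or Col replicate 2 (6.68).

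**Figure D1:**
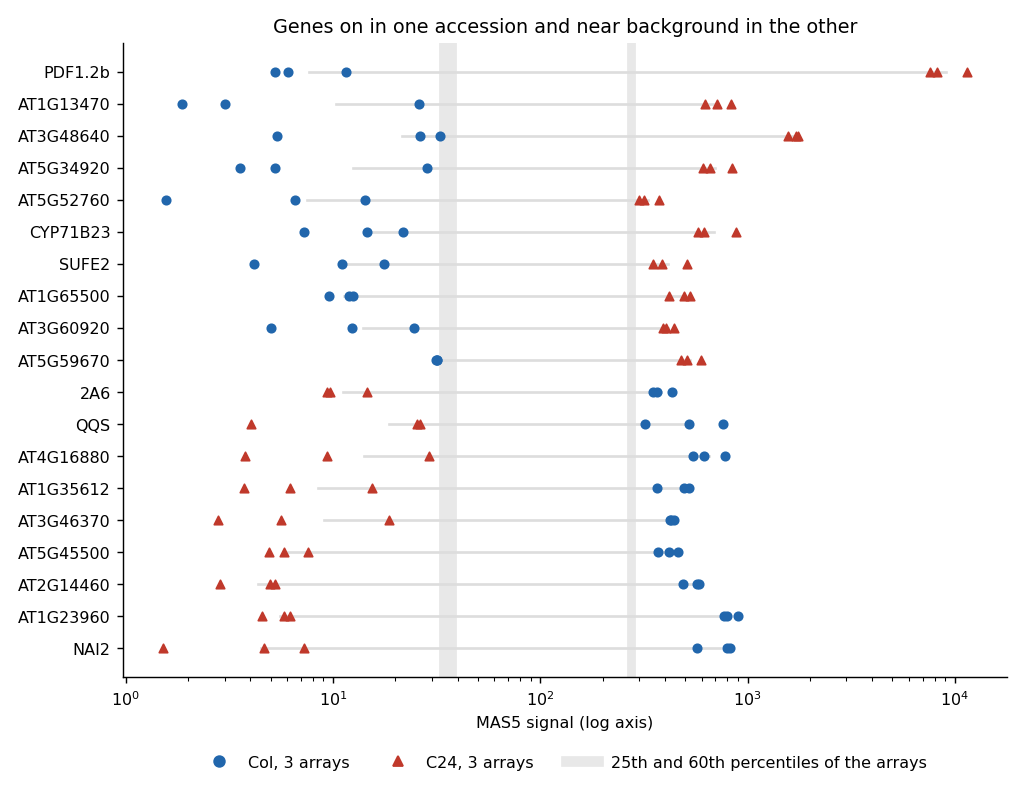
MAS5 signal on a log axis of the 19 named genes that were on in one accession and near background in the other, with 1 point per array (Col blue circles, C24 red triangles), grey lines that join the group means, and grey bands at the 25th and 60th percentiles of the 6 arrays. The 10 upper genes have C24 signals of at least 299 and the 9 lower genes have C24 signals of at most 29.2.

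On in Col and near background in C24 were NAI2 (AT3G15950), which shapes ER bodies, QQS (AT3G30720), an orphan gene known for its effect on leaf starch, and 2A6 (AT1G03410), of the 2-oxoglutarate-dependent oxygenase family. NAI2 read 827, 572 and 798 in Col and 1.52, 7.27 and 4.63 in C24. Its difference of -7.6 moved by over 1.5-fold without C24 replicate 1 (-6.96). QQS read 523, 322 and 758 in Col and 26.3, 4.02 and 25.5 in C24, with C24 replicate 2 far under the other C24 arrays; its difference of -5.18 moved by over 1.5-fold without C24 replicate 2 (-4.28). The signals of 2A6 were 366, 434 and 348 in Col and 9.67, 9.41 and 14.6 in C24, and a second probe set for it was also lower in C24, by a smaller difference of -2.46.

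Of the loci known by number, AT1G23960 read 799, 773 and 903 in Col and 6.23, 5.84 and 4.57 in C24, AT2G14460 488, 569.9 and 583 in Col and 2.86, 4.95 and 5.27 in C24 and AT5G45500 369, 461 and 419 in Col and 7.55, 5.8002 and 4.91 in C24. None of these C24 signals exceeded 7.55. AT1G35612 read 495, 364 and 521 in Col and 6.22, 3.73 and 15.5 in C24. AT4G16880 read 779.6, 548 and 618 in Col and 29.2, 9.32 and 3.75 in C24, and AT3G46370 read 421, 443 and 427 in Col and 5.65, 18.7 and 2.796 in C24. The differences of the last 2 depend on single C24 arrays: AT4G16880 (-5.99) moved by over 1.5-fold without C24 replicate 1 (-6.76) or C24 replicate 3 (-5.28), and AT3G46370 (-6.01) moved by over 1.5-fold without C24 replicate 2 (-6.76) or C24 replicate 3 (-5.39). Where a group sits this low, the ratio depends on signals of a few units; with 32 added to every signal before the log, the median difference fell from 5.82 to 3.87 over the 20 probe sets on in C24, and went from -6.06 to -3.75 over the 10 on in Col. Of all called genes given a value here, 47 moved by over 1.5-fold in this way, all of them toward 0.

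Other genes with large differences fell outside the rule because at least 1 Col array passed the 25th percentile. For AT4G29200 and AT5G55450 every Col array passed it. CHI (AT2G43570), a chitinase gene, read 54.7, 8.91 and 42.6 in Col and 2289, 2145 and 2761 in C24, and its difference of 6.44 (SE 0.61, adjusted p = 2.84e-06) moved by over 1.5-fold without Col replicate 2 (5.63). AT4G29200 read 52.2, 35.4 and 64.8 in Col and 4189.7, 4325 and 3745 in C24, a difference of 6.37 (SE 0.17, adjusted p = 5.51e-12). AT5G55450 read 161, 70.7 and 134 in Col and 8317, 8317 and 7508 in C24, a difference of 6.13 (SE 0.39, adjusted p = 5.96e-08). Their lowest C24 signal was 2145 and their highest Col signal 161.

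The few measured marker genes of jasmonate, ethylene and salicylic acid were higher in C24 where they were called. Only 5 of 35 listed jasmonate and ethylene marker genes were measured. Of these 5, 3 rose, all of them defensin genes (background 8.52%), none fell, and the median of the 5 was 3.37. JMT, which methylates jasmonic acid and is not in that list, was called lower (-3.33, described below). The defensin gene PDF1.2 (AT5G44420) read 83.7, 61.99 and 91.2 in Col and 4409, 3354 and 2928 in C24, a difference of 5.49 (SE 0.79, adjusted p = 0.000171). The lowest C24 array stood far above the highest Col array. The third called member, LCR67, another defensin gene, was on no array above 70.4 and gave a difference of 3.37 (SE 1.09, adjusted p = 0.0446) that was only 0.79 and not called with 32 added to the signals. It moved by over 1.5-fold without C24 replicate 2 (4.6) and lost its call without C24 replicate 1 (2.35), C24 replicate 3 (3.16), Col replicate 1 (3.16), Col replicate 2 (3.38), Col replicate 3 (3.58), F1 replicate 1 (3.37), F1 replicate 2 (3.37) or F1 replicate 3 (3.37). ORA47 and PDF1.4 were not called, with differences of 0.48 (adjusted p = 0.121) and 1.15 (adjusted p = 0.074).

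Of 30 listed salicylic acid genes 3 were measured, and all 3 rose in C24 (background 8.52%). GRX480 (AT1G28480), a glutaredoxin that binds TGA transcription factors, read 53.2, 37.6 and 86.3 in Col and 203, 272 and 231 in C24, a difference of 2.07 (SE 0.4, adjusted p = 0.00203). SAG101 (AT5G14930), a lipase-like partner in immune signalling, read 68.2, 92.8 and 95.8 in Col and 231, 174 and 209.7 in C24, a difference of 1.26 (SE 0.25, adjusted p = 0.00235). Neither gene's groups overlapped. AT3G48080 differed by 2.89 (SE 0.9, adjusted p = 0.0371), but 1 Col array (54.9) came close to the C24 arrays (64.2 to 77.1), and the difference moved by over 1.5-fold without Col replicate 2 (4.15) and lost its call without C24 replicate 1 (2.87), C24 replicate 2 (2.97), C24 replicate 3 (2.84), Col replicate 1 (1.79), Col replicate 3 (2.74) or F1 replicate 2 (2.89). With 32 added it was 1.08. Among 7 WRKY transcription factor genes WRKY53 (AT4G23810), a regulator of leaf senescence and defence, was the 1 called (14.3%, under the background of 16.1%). Its signals were 24.5, 2.67 and 8.17 in Col and 170.2, 161 and 133 in C24, a difference of 4.24 (SE 0.69, adjusted p = 0.000449) that moved by over 1.5-fold without Col replicate 1 (5.04) or Col replicate 2 (3.44), and that was 2.12 with 32 added. Of 9 genes for calmodulin-like calcium sensors CML41 (AT3G50770), which acts in the closing of plasmodesmata in immunity, was the 1 called (11.1%, also under the background of 16.1%). It read 59.3, 98.9 and 108 in Col and 558, 753 and 999 in C24, a difference of 3.12 (SE 0.28, adjusted p = 1.63e-06).

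Every gene with a symbol that was called and differed at least 4-fold was also listed, after the values were seen. The list held 62 of 1557 genes with a symbol, 35 higher and 27 lower in C24, and the genes with known roles in defence given here were picked from it. THI2.2 (AT5G36910), which encodes a thionin, another class of antimicrobial peptide, read 1308, 1582 and 1428 in Col and 7086, 7399 and 8053 in C24, a difference of 2.39 (SE 0.09, adjusted p = 4.02e-10). OSM34 (AT4G11650), an osmotin-like protein gene of the PR-5 family, read 3.93, 2.56 and 2.95 in Col and 44.6, 54.5 and 54.7 in C24, a difference of 4.04 (SE 0.86, adjusted p = 0.00398). The groups did not overlap for either gene, and OSM34 was low on the scale in both accessions, with a difference of only 1.24 after 32 was added to the signals. CSA1 (AT5G17880), an intracellular immune receptor of the TIR class, read 234, 368 and 314 in Col and 1148, 1492 and 1531 in C24, a difference of 2.2 (SE 0.16, adjusted p = 1.64e-07). Loci known only by number were not sorted into receptor classes, so CSA1 gives no direction for immune receptors as a group. JRG21 (AT3G55970), a jasmonate-induced oxygenase gene, read 7.69, 28.5 and 33.8 in Col and 156, 117 and 367 in C24; its difference of 3.27 (SE 0.6, adjusted p = 0.00135) moved by over 1.5-fold without Col replicate 1 (2.6). SBT3.3 (AT1G32960), a subtilase tied to immune priming, read 65.2, 6.52 and 28.5 in Col and 145, 91.4 and 240.0 in C24, with 1 Col array not far under the C24 arrays, and its difference of 2.68 (SE 0.76, adjusted p = 0.0241) moved by over 1.5-fold without Col replicate 1 (3.43) and lost its call without C24 replicate 1 (2.69), C24 replicate 3 (2.32) or Col replicate 2 (1.77). On the lower side were JMT and PDF2.1. JMT (AT1G19640), which methylates jasmonic acid, read 169.6, 74.3 and 82.4 in Col and 48.1, 5.35 and 3.93 in C24, and its difference of -3.33 (SE 0.81, adjusted p = 0.00947) moved by over 1.5-fold without C24 replicate 1 (-4.47) or C24 replicate 3 (-2.66) and lost its call without Col replicate 1 (-2.96). With 32 added it was -1.5. PDF2.1 (AT2G02120), a defensin gene, read 35.4, 33.2 and 21.98 in Col and 9.14, 3.31 and 1.41 in C24, near the bottom of the scale in both accessions, and its difference of -3.08 (SE 0.98, adjusted p = 0.0411) moved by over 1.5-fold without C24 replicate 1 (-3.78) and lost its call without C24 replicate 2 (-3.04), C24 replicate 3 (-2.43), Col replicate 1 (-2.95), Col replicate 2 (-3.0), Col replicate 3 (-3.3) or F1 replicate 3 (-3.08); with 32 added it was -0.76. The 15 genes taken as defensins by name gave 3 higher, PDF1.2b, PDF1.2 and LCR67, and 2 lower, PDF2.1 and PDF1B (-0.58), with a median of -0.05. PDF1B and PDF1A in that list share the letters of the symbol but encode peptide deformylases.

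U-box ubiquitin ligases, some of which restrain immune signalling, gave 3 called genes of 9 (33.3%, background 16.1%), all higher in C24. This family and the others named by a shared symbol stem were added after the annotation was seen. PUB19 (AT1G60190) read 44.6, 111 and 58.6 in Col and 238, 1094 and 221 in C24, and its difference of 2.55 (SE 0.48, adjusted p = 0.00168) moved by over 1.5-fold without C24 replicate 2 (1.8). PUB24, at 1.1 (SE 0.33, adjusted p = 0.0322), lost its call without C24 replicate 1 (1.14), C24 replicate 2 (0.98), C24 replicate 3 (1.19), Col replicate 1 (1.13) or Col replicate 2 (0.94). PUB49, at 1.08 (SE 0.3, adjusted p = 0.0225), lost its call without C24 replicate 1 (1.1), C24 replicate 2 (1.01) or C24 replicate 3 (1.13). The median of the family was -0.03.

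ER body genes were lower in C24 with 1 exception among those called. Of 7 measured among 18 listed, 4 fell in C24 (background 7.56%) and 1 rose, with a median of -2.74. PYK10 (AT3G09260), the main beta-glucosidase of ER bodies, read 2493, 2759 and 2926 in Col and 87.3, 135 and 54.1 in C24, a difference of -4.98 (SE 0.23, adjusted p = 1.67e-09). Jacalin-related lectins that associate with PYK10 did not move as one. JAL22 (AT2G39310) read 668, 915 and 1066 in Col and 55.97, 57.2 and 45.5 in C24, a difference of -4.04 (SE 0.19, adjusted p = 2.24e-09), and JAL33 (AT3G16450) read 429, 479 and 721 in Col and 84.9, 78.7 and 74.9 in C24, a difference of -2.74 (SE 0.18, adjusted p = 7.25e-08). JAL23 (AT2G39330), whose locus is close to that of JAL22, went the other way with 408, 256 and 372 in Col and 780.0, 743 and 653 in C24, a difference of 1.09 (SE 0.17, adjusted p = 0.000292). JAL34 gave 1469 ± 125 in Col and 1432 ± 27.4 in C24 and was not called (-0.03 (adjusted p = 0.867)). NAI1, the transcription factor known to switch on NAI2 and PYK10, was not called either, with 65.6 ± 34.2 in Col and 78.5 ± 10.6 in C24 and a difference of 0.39 (adjusted p = 0.59).

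Other beta-glucosidases went both ways, 3 higher and 5 lower of 22 including PYK10 (36.4% called, background 16.1%). BGLU43 (AT3G18070) rose, with 32.03, 62.1 and 54.9 in Col and 162, 242 and 259.6 in C24, a difference of 2.18 (SE 0.34, adjusted p = 0.000333). BGLU42 (AT5G36890) fell, with 429, 507 and 577 in Col and 253, 246 and 327 in C24, a difference of -0.87 (SE 0.15, adjusted p = 0.000953). Glucosinolates are the other large class of stored glycosides. Only 6 of 51 listed genes of their synthesis, transport and breakdown were measured. Of the 6, 2 rose (33.3%, background 8.52%) and none fell. They were BCAT4 (AT3G19710), which starts the elongation of methionine, with 8625, 9213 and 11911 in Col and 16283, 17124 and 14080.0 in C24 and a difference of 0.68 (SE 0.12, adjusted p = 0.00117), and the transporter gene GTR2 (AT5G62680), with 249.8, 310.0 and 356 in Col and 519, 457 and 476 in C24 and a difference of 0.68 (SE 0.15, adjusted p = 0.00428).

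Measured genes of the flavonoid pathway were mostly lower in C24. Only 9 of 36 listed genes were measured, so most of the pathway was not seen. Of the 9, 7 fell (background 7.56%), none rose and the median was -1.42. UGT78D1 (AT1G30530), which adds rhamnose to flavonols, read 1619, 1709 and 1446 in Col and 90.7, 124 and 83.6 in C24, a difference of -4.02 (SE 0.16, adjusted p = 5.74e-10). DFR (AT5G42800), which commits flavonoids to anthocyanins, read 558, 637 and 665 in Col and 173, 211 and 141 in C24, a difference of -1.84 (SE 0.17, adjusted p = 2.78e-06). UF3GT (AT5G54060), which adds xylose to anthocyanins, read 282, 299 and 288 in Col and 93.4, 72.9 and 47.5 in C24, a difference of -2.08 (SE 0.27, adjusted p = 5.77e-05). No C24 array reached a Col array for these 3 genes. AT5MAT (AT3G29590), the anthocyanin malonyltransferase gene, read 83.1, 96.3 and 83.2 in Col and 38.2, 5.898 and 13.5 in C24; its difference of -2.59 (SE 0.62, adjusted p = 0.00899) moved by over 1.5-fold without C24 replicate 1 (-3.29) or C24 replicate 2 (-1.94), and was -1.27 with 32 added. AT1G06000 differed by -1.42 (SE 0.14, adjusted p = 4.54e-06) and AT4G14090 by -1.08 (SE 0.23, adjusted p = 0.00452). CHIL, a helper of chalcone synthase, differed by -0.69 (SE 0.2, adjusted p = 0.0265) and lost its call without C24 replicate 1 (-0.7), C24 replicate 3 (-0.5), Col replicate 1 (-0.5) or Col replicate 2 (-0.69). The 2 members not called were UGT78D2 (-0.31 (adjusted p = 0.0576)) and UGT84A1 (-0.59 (adjusted p = 0.718)), the latter at 5.45 ± 1.15 in Col and 3.57 ± 0.357 in C24, near the bottom of the scale.

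UDP-glycosyltransferases as a family were split, with 8 of 51 higher and 9 lower in C24 (33.3% called, background 16.1%) and a median of 0.02. UGT72E1 (AT3G50740), which acts on lignin precursors, read 195, 209 and 307 in Col and 980.5, 821 and 843 in C24, a difference of 1.92 (SE 0.19, adjusted p = 4.43e-06). UGT72B3 (AT1G01420) read 350.1, 281 and 269.5 in Col and 887, 845 and 831 in C24, a difference of 1.52 (SE 0.12, adjusted p = 5.28e-07). Both cytokinin N-glucosyltransferase genes were lower: UGT76C1 (AT5G05870) read 296, 288 and 317 in Col and 137, 185 and 133 in C24, a difference of -1.0 (SE 0.18, adjusted p = 0.000869), and UGT76C2 (AT5G05860) read 379.6, 306 and 281 in Col and 218, 146 and 202 in C24, a difference of -0.78 (SE 0.23, adjusted p = 0.0262). The second of them lost its call without C24 replicate 2 (-0.61), Col replicate 1 (-0.66) or Col replicate 2 (-0.81). UGT85A2 and UGT85A5, neighbours by locus number, fell by similar amounts, -1.15 (SE 0.2, adjusted p = 0.000864) and -1.02 (SE 0.21, adjusted p = 0.00345).

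Genes named as cytochrome P450s leaned to C24. Of 28 genes taken by symbol 6 rose and 1 fell (25% called, background 16.1%). The gene that fell (CYP71, -0.52) is a cyclophilin and not a P450. It lost its call without C24 replicate 2 (-0.52), C24 replicate 3 (-0.47) or Col replicate 3 (-0.42). CYP71B24 (AT3G26230) read 216, 179.7 and 236 in Col and 834, 767 and 1053 in C24, a difference of 2.07 (SE 0.15, adjusted p = 1.78e-07), and CYP71B22 (AT3G26200) read 115, 144 and 130.0 in Col and 251, 347 and 369.9 in C24, a difference of 1.3 (SE 0.29, adjusted p = 0.00568). Both are next to CYP71B23 among the measured genes. CYP71B6 (AT2G24180) read 846, 845 and 835 in Col and 1872, 1831 and 1816 in C24, a difference of 1.13 (SE 0.08, adjusted p = 1.74e-07), with replicates that varied by a few percent. CYP71B36 differed by 1.06 (SE 0.22, adjusted p = 0.00273) and CYP78A9, a regulator of organ size, by 0.98 (SE 0.13, adjusted p = 8.67e-05). Glutathione transferases, which conjugate reactive and foreign compounds, gave 2 called genes of 14, both higher. That share (14.3%) was under the background of 16.1%. The 2 were GSTU26 (AT1G17190), with 169, 253 and 199 in Col and 868, 924 and 873 in C24 and a difference of 2.12 (SE 0.14, adjusted p = 7.44e-08), and GSTU27 (AT3G43800), with 933, 978 and 1067 in Col and 2448, 2628 and 2822 in C24 and a difference of 1.41 (SE 0.09, adjusted p = 7.43e-08).

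Serine carboxypeptidase-like proteins, a family that includes enzymes attaching acyl groups to plant metabolites, held 9 called genes of 29, 4 higher and 5 lower. That was 31% called, beside the background of 16.1%. scpl42 (AT5G42240) had 1 very low array among its C24 values: 843, 765 and 807 in Col and 76.5, 3.81 and 69.4 in C24. Its difference of -4.89 (SE 0.77, adjusted p = 0.000382) moved by over 1.5-fold without C24 replicate 1 (-5.63), C24 replicate 2 (-3.47) or C24 replicate 3 (-5.56), and every C24 array stayed under every Col array. scpl48 (AT3G45010) fell with closer replicates, 1149, 1121 and 1077 in Col and 719, 526 and 658 in C24, a difference of -0.83 (SE 0.12, adjusted p = 0.000245). scpl29 (AT4G30810) rose, with 955, 934 and 999 in Col and 1653, 1588 and 1359 in C24 and a difference of 0.67 (SE 0.11, adjusted p = 0.000677). TBL proteins acetylate cell-wall polysaccharides, and 4 of 22 fell while 1 rose (22.7% called, background 16.1%). TBL26 (AT4G01080) read 1218, 956 and 774 in Col and 465, 259 and 263 in C24, a difference of -1.61 (SE 0.22, adjusted p = 0.000103).

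Cell-wall loosening genes were split as well: of 29 expansin and XTH genes 4 rose and 3 fell (24.1% called, background 16.1%). EXLB1 (AT4G17030), an expansin-like gene, read 207, 250.1 and 251 in Col and 656, 754 and 458 in C24, a difference of 1.37 (SE 0.17, adjusted p = 4.02e-05), and EXPB1 (AT2G20750) read 302, 335 and 320.1 in Col and 631, 516 and 452 in C24, a difference of 0.73 (SE 0.13, adjusted p = 0.00137). EXGT-A3 (AT2G01850), a xyloglucan transglycosylase gene, fell by a small amount, -0.41 (SE 0.09, adjusted p = 0.00405). Among 4 genes for pectin enzymes, PMEPCRF (AT5G53370) read 442, 375 and 251 in Col and 1102, 930.0 and 699.9 in C24, a difference of 1.37 (SE 0.2, adjusted p = 0.000157), and ATPMEPCRB (AT4G02330) read 39.6, 36.9 and 107 in Col and 239, 231 and 356 in C24, a difference of 2.32 (SE 0.37, adjusted p = 0.000394). Both rose, whereas PME61 fell by less, -0.92 (SE 0.19, adjusted p = 0.00356).

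The SWEET sugar transporters moved one way where they moved: 4 of 14 fell in C24 and none rose (28.6% called, background 16.1%). SWEET2 (AT3G14770) read 477, 420.1 and 477 in Col and 239, 188 and 223 in C24, a difference of -1.08 (SE 0.15, adjusted p = 0.000115). SWEET16 (AT3G16690) read 414, 530.1 and 456 in Col and 226, 285 and 283 in C24, a difference of -0.82 (SE 0.15, adjusted p = 0.0012), and SWEET17 (AT4G15920) read 2862, 2558 and 2809.9 in Col and 2189, 1956 and 2239 in C24, a difference of -0.37 (SE 0.09, adjusted p = 0.00792). These 3 proteins sit in the vacuole membrane. SWEET1 differed by -0.54 (SE 0.15, adjusted p = 0.0244) and lost its call without C24 replicate 3 (-0.39), Col replicate 1 (-0.51), Col replicate 2 (-0.55) or Col replicate 3 (-0.57). The potassium and proton exchanger gene CHX20 (AT3G53720), from the list of 4-fold differences, read 551, 591 and 573 in Col and 111, 73.1 and 59.04 in C24, a difference of -2.87 (SE 0.22, adjusted p = 4.52e-07). Of 37 listed starch and sugar response genes 5 were measured, with 3 of the 5 lower (background 7.56%) and none higher. Apart from QQS the differences were small: SBE2.2, a starch branching enzyme gene, gave -0.4 (SE 0.09, adjusted p = 0.00705), and APL3, a subunit of the enzyme that makes ADP-glucose, gave -0.82 (SE 0.26, adjusted p = 0.0396) and lost its call without C24 replicate 1 (-0.78), C24 replicate 3 (-0.56), Col replicate 1 (-0.76), Col replicate 2 (-0.78) or F1 replicate 2 (-0.82).

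Among transcription factor families, of 20 bZIP genes 4 rose and none fell (20% called, background 16.1%), with a median of 0.32. Of the 4, 3 encode factors that respond to misfolded protein in the ER. BZIP60 (AT1G42990) read 420.0, 490.2 and 525 in Col and 622, 749.5 and 818 in C24, a difference of 0.61 (SE 0.12, adjusted p = 0.00298). BZIP17 read 197, 247 and 211 in Col and 311, 296 and 361 in C24 and BZIP28 read 352, 347 and 259 in Col and 387, 517 and 466 in C24, without overlap between the accessions. Their differences were 0.57 (SE 0.17, adjusted p = 0.0336) and 0.52 (SE 0.16, adjusted p = 0.0345), and these calls were less steady: BZIP17 lost its call without C24 replicate 1 (0.59), C24 replicate 3 (0.48), Col replicate 1 (0.49) or Col replicate 3 (0.55), and BZIP28 lost its call without C24 replicate 2 (0.42), C24 replicate 3 (0.5) or Col replicate 3 (0.38). The other called gene was BZIP34, at 0.93 (SE 0.28, adjusted p = 0.0357), which lost its call without C24 replicate 2 (0.91), C24 replicate 3 (0.81), Col replicate 1 (0.87) or Col replicate 3 (0.75). After median centring or quantile normalization BZIP17, BZIP28 and BZIP34 kept their direction and were not called.

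Of 9 bHLH genes 3 fell and none rose (33.3% called, background 16.1%), and all 3 act in the response to iron shortage. bHLH104 (AT4G14410) read 710.2, 666 and 628 in Col and 298, 274 and 365 in C24, a difference of -1.11 (SE 0.13, adjusted p = 3.62e-05), and bHLH115 (AT1G51070) read 882, 983 and 796 in Col and 602, 606 and 673 in C24, a difference of -0.5 (SE 0.1, adjusted p = 0.00303). Both groups were tight and separate. BHLH101 (AT5G04150) read 13.9, 98.9 and 91.7 in Col and 3.04, 4.88 and 7.08 in C24, so that 1 Col array was near the C24 level, and its difference of -3.41 (SE 0.84, adjusted p = 0.0103) moved by over 1.5-fold without Col replicate 1 (-4.34) and lost its call without Col replicate 2 (-2.92) or Col replicate 3 (-2.97). With 32 added it was -1.29. ILR3, bHLH34 and bHLH121, which act in the same response, were not called, with differences of -0.15 (adjusted p = 0.322), -0.17 (adjusted p = 0.652) and 0.07 (adjusted p = 0.777). Among 42 MADS box genes 1 rose and 3 fell (9.52% called, under the background of 16.1%). AGL87 (AT1G22590) read 983, 974 and 977 in Col and 83.8, 113 and 74.95 in C24, a difference of -3.46 (SE 0.15, adjusted p = 1.56e-09), with the 3 Col arrays between 974 and 983. AGL24 (AT4G24540), a promoter of flowering, differed by -0.72 (SE 0.22, adjusted p = 0.0348) and lost its call without C24 replicate 2 (-0.63), C24 replicate 3 (-0.66), Col replicate 1 (-0.61), Col replicate 2 (-0.8) or Col replicate 3 (-0.75).

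Chromatin and cell division genes included lower histone H2B genes and a higher linker histone gene. HTB2 (AT5G22880), a histone H2B gene, read 1570.4, 1573 and 1502 in Col and 359, 309.9 and 385 in C24, a difference of -2.15 (SE 0.11, adjusted p = 4.97e-09). HTB4 (AT5G59910) fell by less, with 5468, 5154 and 5055 in Col and 3187, 2968 and 2462 in C24, a difference of -0.87 (SE 0.14, adjusted p = 0.000499), and HTB11 differed by -0.44 (SE 0.08, adjusted p = 0.00123). Another H2B gene, HTB1, was not called (0.06 (adjusted p = 0.798)). PRL (AT4G02060), a subunit of the replicative helicase, read 556, 475 and 528 in Col and 308, 353 and 298 in C24, a difference of -0.7 (SE 0.12, adjusted p = 0.000867). HIS1-3 (AT2G18050), a stress-induced H1 histone, read 202, 203 and 249 in Col and 720.2, 765 and 739 in C24, a difference of 1.77 (SE 0.25, adjusted p = 0.000126). Limma called none of 9 genes listed for gene silencing, 2 of which had an unadjusted p under 0.05.

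Cold and abscisic acid genes were also higher in C24 where called. Of 7 cold and abscisic acid genes measured among 29 listed, 3 rose (background 8.52%) and none fell. STZ (AT1G27730), a zinc finger repressor induced by many stresses, read 74.2, 42.3 and 44.9 in Col and 299.8, 269 and 298 in C24, a difference of 2.47 (SE 0.22, adjusted p = 1.87e-06). COR15B (AT2G42530) and COR15A (AT2G42540), which protect chloroplast membranes in the cold, gave 1.3 (SE 0.16, adjusted p = 5.39e-05) and 0.64 (SE 0.12, adjusted p = 0.0018). MSRB9 (AT4G21850), a methionine sulfoxide reductase gene that repairs oxidised protein, read 107, 50.6 and 90.1 in Col and 366, 393 and 551 in C24, a difference of 2.45 (SE 0.33, adjusted p = 0.000105). Among 12 auxin response genes 2 rose and 1 fell (25% called, background 16.1%). Of the higher genes, IAA29 (AT4G32280) read 49.1, 91.8 and 124 in Col and 282, 183 and 249 in C24, a difference of 1.51 (SE 0.3, adjusted p = 0.00259). The lower gene, IAA18 (AT1G51950), read 678, 558 and 724 in Col and 357, 354 and 351 in C24, a difference of -0.87 (SE 0.13, adjusted p = 0.000203). IAA29 and IAA18 encode repressors of auxin signalling. ARR15 (AT1G74890), a negative regulator of cytokinin signalling, read 194, 161 and 196 in Col and 94.98, 44.7 and 20.7 in C24, and its difference of -2.04 (SE 0.54, adjusted p = 0.0157) lost its call without C24 replicate 3 (-1.49), Col replicate 1 (-2.0) or Col replicate 3 (-1.99).

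Of the 16 nuclear genes of photosynthesis in 3 lists, 3 were called (18.8%), a share near the background of 16.1%. Limma called none of 3 Calvin-Benson cycle genes, 2 of which had an unadjusted p under 0.05; RCA gave -0.19 (adjusted p = 0.325), PRK -0.23 (adjusted p = 0.156) and SBPASE -0.2 (adjusted p = 0.143). Of 7 photosystem and antenna genes, LHCB4.2 (AT3G08940), a minor antenna protein of photosystem II, fell, with 29238, 30425 and 32485 in Col and 20909, 22530.4 and 21075 in C24 and a difference of -0.51 (SE 0.1, adjusted p = 0.00179). Of 6 chlorophyll synthesis genes CHLM (AT4G25080) fell, with 11206, 13680.3 and 12523 in Col and 8291, 7264 and 8751 in C24 and a difference of -0.62 (SE 0.1, adjusted p = 0.00039), and PORB (AT4G27440) rose by 0.47 (SE 0.14, adjusted p = 0.0299), but it lost its call without C24 replicate 2 (0.42), C24 replicate 3 (0.4), Col replicate 1 (0.34) or Col replicate 2 (0.47), as also after median centring (0.39). The circadian gene GI (AT1G22770) read 533, 544 and 597 in Col and 825, 917 and 916 in C24, a difference of 0.67 (SE 0.12, adjusted p = 0.000961). Limma called none of 4 guard cell and trichome markers, 1 of which had an unadjusted p under 0.05: TRY, FMA, MUTE and SPCH gave -0.55 (adjusted p = 0.0519), -0.22 (adjusted p = 0.66), -0.91 (adjusted p = 0.304) and -1.46 (adjusted p = 0.374).

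Of 69 chloroplast-encoded genes 24 were called (34.8%), beside 14.1% to 16.8% of the named genes on the 5 nuclear chromosomes. Chloroplast-encoded genes are bright on these arrays, and brighter genes were called more often: among nuclear named genes with a mean signal of at least 1931, the lower quartile of the chloroplast-encoded genes, 241 of 684 were called (35.2%), beside 21 of 52 chloroplast-encoded genes (40.4%), a comparison chosen after the data were seen. At that cut the share called was near that of the nuclear genes. At a lower cut, a mean signal of at least 89.9, 24 of 69 chloroplast-encoded genes (34.8%) and 1856 of 7222 nuclear genes (25.7%) were called. A cut sets a lower bound and does not match brightness above it. The 24 were 8 higher and 16 lower, with a median of -0.17. Called genes lay side by side in gene order. The 7 consecutive genes ycf4, cemA, petA, psbJ, psbL, psbF and psbE fell, with differences from -0.95 (psbJ) to -0.46 (psbL), and the next 5, petL, petG, psaJ, rpl33 and rps18, rose, with differences from 0.42 (rpl33) to 1.23 (petG). psbJ, a small subunit of photosystem II, read 12712, 14288 and 12862 in Col and 6663, 6649 and 7341 in C24, a difference of -0.95 (SE 0.09, adjusted p = 2.59e-06). petG, a small subunit of the cytochrome b6f complex, read 544, 716 and 571 in Col and 1462, 1306 and 1508 in C24, a difference of 1.23 (SE 0.15, adjusted p = 4.02e-05). The pair psbK and psbI rose by 0.97 and 0.7, and the pair ndhJ and ndhK fell, with differences of -0.77 and -1.02. rpoB, a subunit of the plastid RNA polymerase, stood apart with 122, 80.4 and 76.9 in Col and 936, 929 and 875 in C24, a difference of 3.33 (SE 0.16, adjusted p = 3.61e-09), while rpoC1 and rpoC2, which follow it in the same transcription unit, gave -0.45 (adjusted p = 0.00204) and -0.25 (adjusted p = 0.147). ycf4 lost its call without C24 replicate 2 (-0.49), C24 replicate 3 (-0.43) or Col replicate 2 (-0.46), and rpl33 lost its call without C24 replicate 1 (0.39) or Col replicate 1 (0.36), as also after median centring (0.34).

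**Figure D2:**
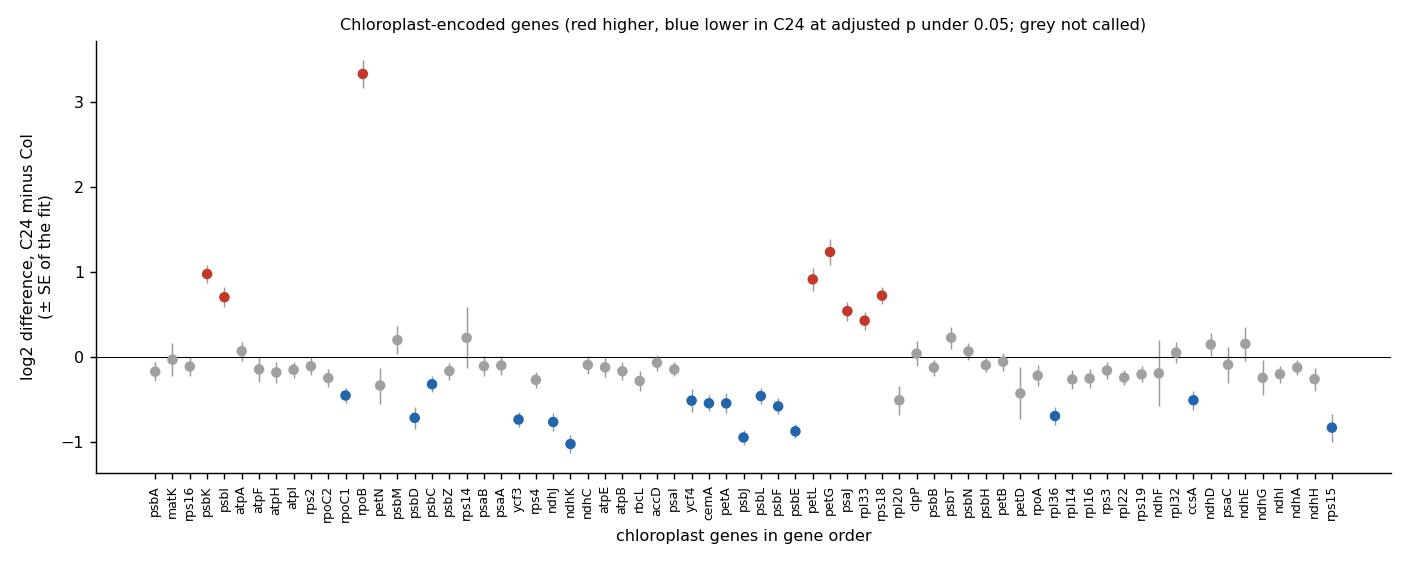
Log2 difference, C24 minus Col, with the SE of the fit, of 69 chloroplast-encoded genes in gene order (red called higher in C24, blue called lower, grey not called). A stretch of 7 lower genes from ycf4 to psbE is followed by 5 higher genes from petL to rps18, and rpoB stands at 3.33.

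Gene order covered 13286 measured genes, 69 of them chloroplast-encoded. In it, 6 runs of 3 or more genes next to each other among those measured differed at least 2-fold in the same direction. These runs held 19 genes in all and lay on the nuclear chromosomes. The longest was AT5G52720, AT5G52740, AT5G52750 and AT5G52760 on chromosome 5. AT5G52750 read 33.9, 33.7 and 37.8 in Col and 479.9, 568 and 637 in C24, a difference of 3.99 (SE 0.31, adjusted p = 4.36e-07), and AT5G52740 read 20.1, 13.3 and 50.6 in Col and 243, 202 and 431 in C24, a difference of 3.53 (SE 0.52, adjusted p = 0.000201). AT5G52720 read 2.51, 2.34 and 3.83 in Col and 74.6, 98.8 and 105 in C24, and its difference of 5.02 was 1.83 with 32 added to the signals. AT5G52760, with its Col signals also near the bottom of the scale, differed by 5.96, which was 3.2 with 32 added and moved by over 1.5-fold without Col replicate 1 (5.08) or Col replicate 2 (6.68). Of the 36 measured genes flanking the 6 runs, 3 on either side of each, 4 were called, around 3 of the runs, with differences from -0.57 to 0.44. Those of the longest run were not called. The same was true around CYP71B22, CYP71B23 and CYP71B24 on chromosome 3, where the named relatives CYP71B25 and CYP71B26 differed by 0.21 (adjusted p = 0.886) and -0.16 (adjusted p = 0.434).

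AT1G23830, AT1G23840 and AT1G23850 on chromosome 1 were also higher in C24. AT1G23850 read 177, 97.6 and 129.5 in Col and 645, 508 and 629 in C24, a difference of 2.18 (SE 0.24, adjusted p = 1.3e-05); AT1G23840, at 3.24, moved by over 1.5-fold without Col replicate 2 (2.45) or Col replicate 3 (4.0). On chromosome 4, AT4G38550 read 120.3, 79.5 and 123 in Col and 1057, 1254 and 1051 in C24, a difference of 3.4 (SE 0.27, adjusted p = 4.44e-07), between AT4G38540 (2.07) and AT4G38560 (3.78). The probe set of AT4G38550 is of a kind that can bind transcripts of related genes. AT4G38540 lost its call without C24 replicate 1 (1.95), C24 replicate 3 (1.94) or Col replicate 2 (1.58). AT4G38560 read 3.99, 2.54 and 3.64 in Col and 44.9, 35.4 and 59.8 in C24, and its difference was 1.14 with 32 added to the signals. A run lower in C24 on the same chromosome held AT4G19500, AT4G19510 and AT4G19520. AT4G19500 read 549, 559 and 656 in Col and 43.6, 7.05 and 16.97 in C24, a difference of -5.08 (SE 0.46, adjusted p = 1.92e-06) that moved by over 1.5-fold without C24 replicate 1 (-5.74) or C24 replicate 2 (-4.43). AT4G19510 (-2.68) moved by over 1.5-fold without C24 replicate 1 (-2.04), and AT4G19520 (-1.84) lost its call without C24 replicate 1 (-1.73), Col replicate 1 (-1.68) or Col replicate 2 (-1.79). The last run lower in C24, on chromosome 5, held scpl42, AT5G42250 and AT5G42280. AT5G42250 read 920.3, 1005 and 981 in Col and 288, 181 and 282 in C24, a difference of -1.98 (SE 0.16, adjusted p = 5.01e-07); AT5G42280 (-1.68) lost its call without Col replicate 1 (-1.57) or Col replicate 3 (-1.61).

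**Figure D3:**
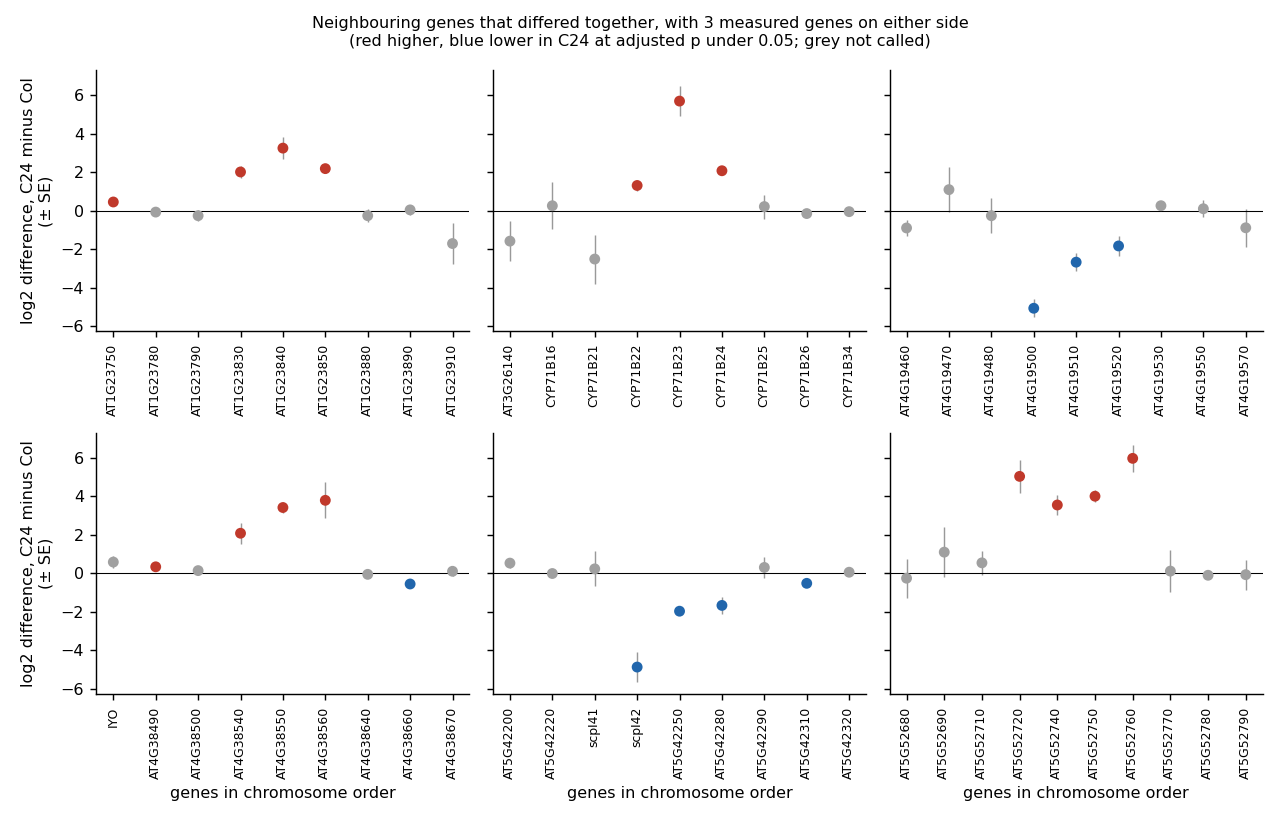
Log2 difference, C24 minus Col, with the SE of the fit, for the 6 runs of neighbouring genes and the 3 measured genes on either side, in chromosome order (red called higher in C24, blue called lower, grey not called). Differences inside the runs span 1.3 to 5.96 in the 4 higher runs and -5.08 to -1.68 in the 2 lower runs.

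Several loci without a gene symbol had high signals as well as large differences. AT1G19960 read 230.3, 298 and 428 in Col and 8422, 7469.6 and 7615 in C24, a difference of 4.66 (SE 0.22, adjusted p = 2.67e-09). AT2G29170 read 77.99, 35.1 and 99.6 in Col and 2149, 1824 and 2199 in C24, a difference of 4.98 (SE 0.27, adjusted p = 1.06e-08), and AT5G44570 read 55.8, 37.5 and 48.7 in Col and 1169, 828 and 1258 in C24, a difference of 4.52 (SE 0.26, adjusted p = 1.97e-08). These loci were drawn from called genes whose groups do not overlap, so the separation of their arrays was fixed by the choice. In the other direction ECS1 (AT1G31580), a cell-wall protein gene, read 21019, 19818 and 22459 in Col and 161, 157 and 123 in C24, a difference of -7.17 (SE 0.1, adjusted p = 9.36e-15). AT2G33220 read 1731, 2024 and 1649.8 in Col and 111, 123 and 149.8 in C24, a difference of -3.82 (SE 0.12, adjusted p = 7.31e-11). AT2G33850 read 2285, 1959 and 2668 in Col and 147, 105 and 141 in C24, a difference of -4.14 (SE 0.18, adjusted p = 9.26e-10). AT4G20480 gave -4.34 (SE 0.2, adjusted p = 1.73e-09) and AT4G02850 gave -4.83 (SE 0.23, adjusted p = 3.51e-09). Across C24 arrays the signals of ECS1, AT2G33220 and AT2G33850 lay between 105 and 161.

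Where 1 gene had more than 1 probe set (144 genes), the log2 differences of its probe sets spanned a median of 0.54 and were in no case called in opposite directions. In 10 of these genes all probe sets were called, in 23 some and in 111 none. The widest span was that of AT3G60420, whose probe sets gave 3.10 and -0.53, the second with signals at the bottom of the scale in both accessions. Among the array's own controls, those for actin differed by place within the transcript. Both actin probe sets at the 3′ end were lower in C24: the older one read 7685, 8850.1 and 8371 in Col and 1595, 1609 and 1812 in C24, and the newer one 14752, 13661 and 14327 in Col and 4337, 3954 and 3464 in C24. At the 5′ end the newer actin probe set read 2269, 2085 and 2321 in Col and 2276, 2277 and 1978 in C24, so the groups overlapped, and in the middle it differed by -0.69. GAPDH probe sets at the 3′ end, the middle and the 5′ end differed by -0.06 to 0.08. Whether the C24 sequence differs under any of these probes was not tested.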

How the data were processed

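The authors deposited intensity values on a linear scale, which MAS5 had produced according to the submitters' processing notes (version and settings not stated there). Trimming 2% at each end left array means of 500.049 to 500.054, so a common scaling preceded deposit. Of 22810 probe sets, 64 controls were set aside. By platform annotation 13513 probe sets named a single gene, 503 named several and 8730 had no name; 13436 were matched to RefSeq (TAIR10.1) for names and gene order, and gene counts use 1 probe set per gene. Log2 signals, with no filter and no further scaling, were fitted with limma 3.58.1 (R 4.3.3) as 3 group means over 9 arrays (lmFit, eBayes with an intensity trend, Benjamini-Hochberg over 22746 probe sets, two-sided), after the script was tested on simulated data. The number of arrays limits precision. No detection calls were used. No batch label is given.

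Named genes were drawn from the 25 largest called, non-overlapping differences in each direction with signals of at least 200 on all 3 arrays of the higher group, up to 4 called members each way per gene group with all members of groups listed by locus, the 12 brightest genes of each on/off list and genes in neighbour runs; genes of other origin were chosen after their values were seen, as were families by symbol stem. Members and lists were chosen with earlier results of these data known. Of 417 loci listed by name, 70 were measured. Promoter sequences were not used here, and some results are not reported here. Same-numbered C24 and Col replicates deviated together with correlations of 0.12, -0.00 and 0.09, and differently numbered ones with correlations from -0.11 to 0.02. The numbers were not taken as pairs in the main fit. The alternatives tried were the 6 arrays alone, a 40th percentile filter, median centring, quantile normalization, no trend, 32 added to signals, a replicate block, other percentiles and leaving out each array.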

Additional observations from a re-analysis of the deposited data

How the results depend on the processing

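The number of probe sets called stayed within 1.5 times of 4091 under every alternative run, from 2764 without an intensity trend to 4327 with the replicate block, and the calls of at least 2-fold stayed within 1.5 times of 848 and 648. Without 1 array, called probe sets ran from 3215 to 4243. With the block no called gene given a value above lost its call. Whether equal replicate numbers in C24 and Col mark a shared batch is not stated in the labels and was not tested. Median centring gave 40.9% of calls higher in C24 against 52.0% before it. The on and off counts depended on the percentiles: with the 50th and 30th percentiles 51 probe sets were on in C24 and 23 in Col, and with the 75th and 20th percentiles 6 and 2. Without 1 array they ran from 20 to 24 in C24 and from 10 to 13 in Col.

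None of the 142 called genes given a value above changed direction under an alternative that tested it; the 40th percentile filter left 116 of them to be tested. Without the trend 20 lost their call: APL3, ARR15, AT3G48080, AT4G38540, BZIP17, BZIP28, BZIP34, CHIL, JMT, LCR67, PDF2.1, PORB, PUB49, SBE2.2, SBT3.3, SWEET1, SWEET17, UGT76C2, rpl33 and ycf4. Leaving out 1 C24 or Col array cost 11 to 18 calls. Genes that were not called did change sign. After median centring HTB1 was -0.0195 and bHLH121 -0.0088, and after quantile normalization RCA was 0.0135. Without 1 array CLV3 ran from -0.99 to 0.85, CYP71B25 from -0.0676 to 0.54, JAL34 from -0.10 to 0.0208, NAI1 from -0.0148 to 0.78 and bHLH121 from -0.0013 to 0.11. The cause of these changes was not tested. A planned search of promoters for motifs was not run. With 3 arrays a group and signals that spread widely at the bottom of the scale, low probe sets give uncertain ratios.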
